A study of Mus musculus with 12 samples.

Results

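The tubulin genes of mouse NIH-3T3 fibroblasts, an immortalised line, were followed here through a time course of RNA labelling with 4-thiouridine (4sU). The set was chosen by symbol and holds 10 of the 17419 genes in the table: 4 α-tubulins (Tuba1a, Tuba1b, Tuba1c and Tuba4a), 5 β-tubulins (Tubb2a, Tubb2b, Tubb4b, Tubb5 and Tubb6) and the γ-tubulin Tubg1. Wild-type cells were given 4sU at 800 µM during 15, 30, 60, 90 or 120 min, or none at all (no4sU), and each of these 6 groups had 2 libraries, A and B. All 12 libraries came from this cell line and shared its genotype, and nothing in the labels says whether A and B were separate cultures, so the p-values below measure the spread between libraries, which may be technical. 4sU is a uridine analogue that enters RNA made during the labelling, and after treatment with iodoacetamide (SLAM-seq) it is read as C instead of T. From these changes the authors estimated, for each gene and labelled library, the new-to-total ratio (NTR), the share of its RNA made since 4sU was added. The title of the series gives its question, which is how the length of labelling biases such measurements.

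α- and β-tubulin form the dimer from which microtubules are built, and γ-tubulin sits in the ring complex from which they grow. Cells hold the amount of free tubulin steady through the decay of tubulin mRNA. When free dimers are in excess, the protein TTC5 binds the first residues of an α- or β-tubulin chain as it leaves the ribosome, and together with SCAPER brings in the CCR4-NOT deadenylase, which shortens the poly(A) tail of the mRNA being translated. The labels name no drug that acts on microtubules. Fibroblast identity was checked with 10 markers, each of which averaged 100 reads or more over the libraries. Their summed level was between 17239 and 21077 CPM (counts scaled to the library's total), against at most 1.07 for 3 epithelial, 7.34 for 3 immune and 1.70 for 3 endothelial markers in the table. Of 4 neuronal markers 1 reached that mean, and their sum was 14.0 to 21.1 CPM, mostly Map2 and Tubb3.

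The first codons, which encode the residues bound in this feedback, are shown to set the α- and β-tubulin starts beside that of the γ-tubulin. Each line gives 30 coding bases of the GENCODE M21 transcript on GRCm38, 5′ to 3′ on the coding strand, with the first 4 codons in capitals. In the α genes an intron lies within the span.
Tuba1a, chr15:98951665-98953453, minus strand: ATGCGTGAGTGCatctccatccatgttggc
Tuba1b, chr15:98933169-98934335, minus strand: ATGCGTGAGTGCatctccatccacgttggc
Tuba1c, chr15:99030422-99034120, plus strand: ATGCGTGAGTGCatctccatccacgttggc
Tuba4a, chr1:75217408-75219195, minus strand: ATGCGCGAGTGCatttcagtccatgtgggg
Tubb2a, chr13:34077900-34077929, minus strand: ATGCGCGAGATCgtgcacatccaggcgggc
Tubb2b, chr13:34130204-34130233, minus strand: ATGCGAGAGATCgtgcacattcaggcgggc
Tubb4b, chr2:25224561-25224590, minus strand: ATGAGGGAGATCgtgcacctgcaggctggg
Tubb5, chr17:35838024-35838053, minus strand: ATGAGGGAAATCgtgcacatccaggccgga
Tubg1, chr11:101120194-101120223, plus strand: ATGCCGAGAGAAatcatcaccctacagttg
The 9 starts hold 7 distinct runs of capitals, since Tuba1a, Tuba1b and Tuba1c share theirs. This is a count of differing bases, and the residues they encode were not compared. Tuba1b and Tuba1c share all 30 bases.

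The resemblance goes on through the coding sequence and bears on many of the values below, because short reads from one copy can fit another. Tuba1a, Tuba1b and Tuba1c lie near each other on chromosome 15 and are 97.1% to 98.3% identical over their coding bases. Tubb2a and Tubb2b are neighbours on chromosome 13 and are 96.5% identical. Tuba4a is 84.7% to 85.3% identical to the Tuba1 genes, other β pairs reach 80.2% to 84.6%, and α is 55.9% to 57.7% identical to β. Of all 50-base windows of its transcript, Tuba1a shares 72.9% with some other gene or pseudogene, Tuba1b 73.8% and Tuba1c 61.0%. The share is 49.6% in Tubb2a, 39.3% in Tubb2b and 50.9% in Tubb4b, the latter mostly with the pseudogene Tubb4b-ps1. Tubb6 shares 0%, Tubb5 0.115%, Tuba4a 1.11% and Tubg1 14.1%, almost wholly with Tubg2. Counts of Tuba1a, Tuba1b and Tuba1c were not whole numbers in each of the 12 libraries, those of Tubb5 were not whole in 8 and those of Tubb6 in 3, and those of Tuba4a were whole in all. The values of Tuba1a, Tuba1b, Tuba1c, Tubb2a, Tubb2b and Tubb4b are therefore uncertain by the division of reads between copies, whose rule the sources used here do not state.

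Libraries held 9917026 to 13739380 counted reads. The 2 no4sU libraries differed from each other in a way that went with gene length. The log2 ratio of no4sU A to no4sU B fell with gene length across genes (Spearman's rho -0.574), and the members' transcripts, 1598 to 2840 bases long, are shorter than the median of 3596 bases. All 10 members were higher in no4sU A than in no4sU B, by 0.02 (Tubb2b) to 0.24 (Tuba1b) on the log2 scale, against 0.00 for the median gene. Comparisons of the members with no4sU are therefore also given without each of these libraries. Those of the gene lists further below are given from the fit of all 12 libraries only, so they carry this uncertainty.

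Tubb5 and Tuba1b were the main tubulin mRNAs. Levels of different genes were compared as reads per kilobase of the deposited gene length, scaled in the manner of TPM to the same total in each library (length-scaled level), and this level was 2700.2 ± 40.5 (SD over 12 libraries) for Tubb5, a β-tubulin of dividing cells. Its lowest, median and highest library had 2629, 2706 and 2768, and its mean put it at the 99.8th percentile of all 17419 genes in the table. Tuba1b, the major α-tubulin of cultured cells, followed at 2005 ± 70.5. The order then went from Tuba1c (1222 ± 34.8) through Tuba1a (970.2 ± 24.7), the α-tubulin best known from developing neurons, and Tubb4b (897 ± 22.2), a broadly expressed β-tubulin, to Tubb6 (456 ± 13.8). All 6 stood at or above the 98.1st percentile.

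The other 4 were far lower. Tubb2a had a length-scaled level of 131 ± 7.72, Tubg1 111 ± 5.16, Tubb2b 54.8 ± 2.62 and Tuba4a, an α-tubulin abundant in platelets and adult tissues, 22.9 ± 1.52. Each gene was above the next in the order in 12 of 12 libraries, and CPM, without scaling by length, gave the same order of means, with Tubb2a above Tubg1 in 9 of 12 libraries and the other neighbours in 12. Tuba1a and Tubb4b came closest, with ranges over libraries of 923 to 1002 and 857 to 932, and the ranges of Tubb2a (116 to 142) and Tubg1 (102 to 120.3) overlapped as well.

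**Figure D1:**
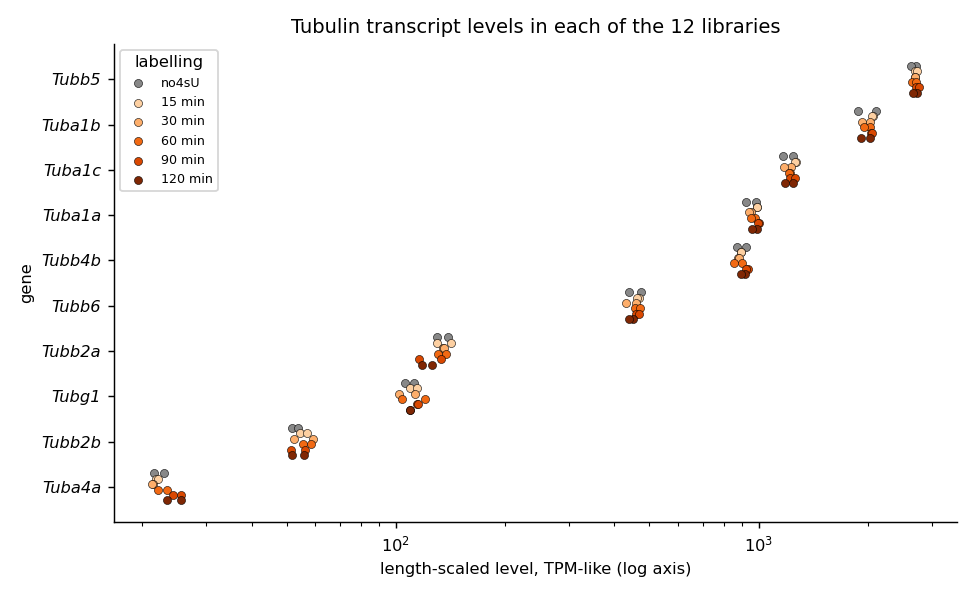
Length-scaled level of each tubulin gene (horizontal axis, TPM-like, logarithmic) in each of the 12 libraries, coloured by labelling time, with genes from highest to lowest. The points of a gene lie close together at all labelling times, from about 2700.2 for Tubb5 down to 22.9 for Tuba4a.

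The subunits of the dimer were close in mRNA level. The summed length-scaled level of the 4 α-tubulins divided by that of the 5 β-tubulins was 0.967 to 1.022, with a median of 1.001, and was above 1 in 6 of the 12 libraries. Few genes made up each sum. Tuba1b gave 47.5% of the α level, Tuba1c 29.0%, Tuba1a 23.0% and Tuba4a 0.544%. Tubb5 gave 63.7% of the β level, Tubb4b 21.2%, Tubb6 10.8%, Tubb2a 3.09% and Tubb2b 1.29%. The shares moved little between libraries, and the widest range was that of Tubb4b, 20.3% to 21.8%.

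Of the tubulin genes outside the set, 9 were in the table and only a few gave reads. Tuba3a, Tuba3b, Tuba8 and Tubb1 had at most 2 reads in any library. Tubb3, a β-tubulin of neurons, had a mean of 78.8 reads and Tube1, the ε-tubulin of centrioles, 120.4. Tubg2, the second γ-tubulin, had a mean of 11.7 reads against 861 for Tubg1.

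New tubulin RNA appeared at different speeds. At 120 min the NTR of Tubb5 was 31.6% ± 0.431 (SD, n = 2), of Tuba1b 19.8% ± 0.339 and of Tubb2a 45.9% ± 2.88, against 35.4% ± 0.523 for the median gene. The α pool was the slower. Weighting each gene by its length-scaled level, the NTR of the β pool was 1.17 to 1.49 times that of the α pool, with a median of 1.43, in 8 of 8 libraries from 30 to 120 min. In the 2 libraries at 15 min, where all NTRs were near 0, the ratio was 0.914 in A and 0.897 in B.

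In libraries A and B, in that order here and below, Tubb5 had an NTR of 1.99% and 1.34% after 15 min, 7.02% and 7.11% after 30, 15.2% and 16.1% after 60, 23.6% and 22.3% after 90, and 31.9% and 31.3% after 120 min. The authors' 90% interval of the last was 30.8% to 31.9%. Tuba1b had 1.63% and 1.04% after 15 min, 5.32% and 4.86% after 30, 9.74% and 10.2% after 60, 14.8% and 13.4% after 90, and 20.0% and 19.5% after 120 min. From 30 min on, both libraries of every group had less new Tuba1b than new Tubb5, and the 90% intervals of the 2 genes did not overlap in any library. Tuba1a went with Tuba1b, at 19.2% and 19.7% at 120 min. Tuba1c lay between them and the β-tubulins, with 6.77% and 5.82% after 30 min, 13.2% and 12.8% after 60, 19.8% and 18.0% after 90, and 25.8% and 25.6% after 120 min.

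All 3 Tuba1 genes had a lower NTR than all 5 β-tubulins in 7 of the 8 libraries from 30 to 120 min, and in 6 of 6 from 60 min. The exception was the 30 min library A, where Tuba1c (6.77%) was above Tubb6 (5.02%). Tuba4a did not go with the other α-tubulins. Its NTR was listed at 0 in both 15 min libraries, with 90% intervals of 0.110% to 3.90% and 0.0400% to 2.04%, and was 7.61% and 6.39% after 30 min, 18.7% and 13.8% after 60, 19.9% and 25.6% after 90, and 30.5% and 30.2% after 120 min. From 30 min on these values lay within the range of the β-tubulins except in the 30 min library B and the 90 min library A, where they were below it. With 282 reads on average their 90% intervals were wide, 25.2% to 35.9% in the 120 min library B.

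Tubb2a was the fastest from 60 min on. Its NTR was 1.33% and 0.820% after 15 min, 7.45% and 6.93% after 30, 24.2% and 22.9% after 60, 33.4% and 32.2% after 90, and 43.9% and 47.9% after 120 min. In each library from 60 min on it was above every other member. Tubg1 was the slowest, with 2.93% and 0.920% after 15 min, 3.30% and 4.51% after 30, 4.51% and 9.05% after 60, 11.3% and 10.5% after 90, and 19.9% and 16.4% after 120 min. It was below every other member in the libraries from 30 to 90 min. At 120 min it was below all others in library B and between Tuba1a and Tuba1b in library A.

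**Figure D2:**
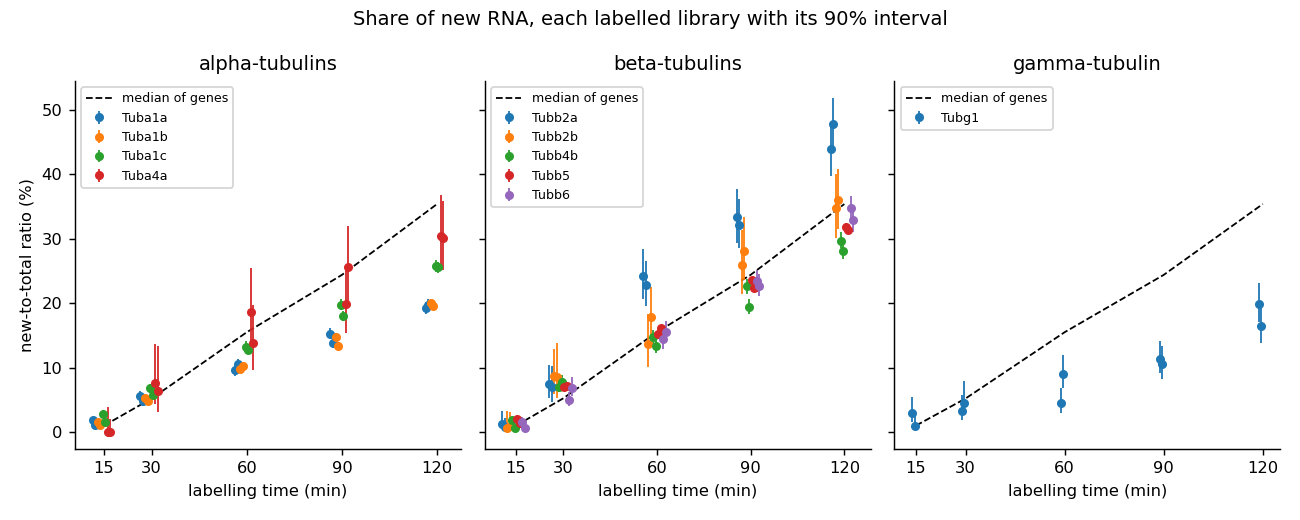
New-to-total ratio in percent (vertical axis) against labelling time in min, for the α-, β- and γ-tubulins, with a point for each labelled library, its 90% interval, and the mean over libraries of the median gene as a dashed line. Tuba1a and Tuba1b end near 20% at 120 min, Tubb2a near 46%, and the other β-tubulins between 28.1% and 36.0%.

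An NTR can be turned into an apparent half-life, the labelling time times ln 2 over -ln(1-NTR). This equals the half-life of the RNA where its level is steady, the cells do not grow and labelling changes nothing. Averaged over the 30 to 120 min groups, it was 182 min ± 10.4 (SD within groups) for Tubb2a, 217 ± 27.1 for Tubb2b, 247 ± 7.74 for Tubb5, 251 ± 41.7 for Tuba4a, 261 ± 40.7 for Tubb6 and 265 ± 21.9 for Tubb4b. Tuba1c had 299.8 min ± 21.4, Tuba1a 391 ± 29.2, Tuba1b 396 ± 21.9 and Tubg1 541 ± 178, whose 60 min libraries stood at 901 and 438. The SD within groups leaves out the change with labelling time, such as 279 min at 30 min and 136 at 120 min for Tubb2a. The order depended on the labelling times used. From the 60, 90 and 120 min groups only, Tubb2a had 149 min, Tubb6 232, Tubb5 234 and Tuba4a 239, so Tubb6 came before Tubb5 and Tuba4a. With the 15 min libraries included, Tubb2a had 301 min and Tubb2b 379, which put Tubb2b above Tuba1c (339). The 15 min value of Tubb2a and of Tubb2b rested on 1 library each. Tuba4a had no usable value at 15 min and cannot be ranked against these. The median gene had 259 min over the 30 to 120 min groups, so Tubb2a, Tubb2b, Tubb5 and Tuba4a were below it and the other 6 above. Tuba4a, Tubb6 and Tubb4b lay within their SD of that value. The placing also changed with time, since at 120 min Tubb5 (219) and Tuba4a (229.9) were above the median gene (198).

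The apparent rates, which are inverse to these half-lives, were compared for all 45 pairs of members with a two-sided exact permutation test that flips the sign of the difference within each of the 8 libraries from 30 to 120 min, with Benjamini-Hochberg adjustment over the 45 pairs. The smallest p this allows is 0.00781. It found 34 pairs that differed and 11 that were not past the threshold. Along the order of half-lives, 3 steps were past it, each in 8 of 8 libraries. These were from Tubb4b to Tuba1c, from Tuba1c to Tuba1a and from Tuba1b to Tubg1 (adjusted exact permutation p = 0.0135 each).

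The other steps did not pass. Tubb2a and Tubb2b had an adjusted exact permutation p of 0.0855, with Tubb2a faster in 6 of 8 libraries, and Tubb2b and Tubb5 had 0.0502, with Tubb2b faster in 7. The step from Tubb5 to Tuba4a had 0.828, that from Tuba4a to Tubb6 0.783, that from Tubb6 to Tubb4b 0.619 and that from Tuba1a to Tuba1b 0.360. The rate of Tuba1a was 1.01 times that of Tuba1b, with an SD of 0.0494 in the log2 ratio over 8 libraries.

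Between families, the test called β faster in 14 of the 15 pairs of a Tuba1 gene with a β-tubulin. The exception was Tuba1c with Tubb6, which did not pass (rate ratio 0.852, adjusted exact permutation p = 0.102). There too β was faster on average, and Tuba1c was the faster in 1 of 8 libraries. Tuba1b had 0.620 times the rate of Tubb5 in a comparison in which 8 of 8 libraries pointed the same way (adjusted exact permutation p = 0.0135). This pair shares no 50-base window. Tuba1b does share 73.8% of its windows with other genes or pseudogenes, so its rate remains uncertain by the division of reads. Tuba4a differed from 1 of the 5 β-tubulins, Tubb2a (0.700 times its rate, adjusted exact permutation p = 0.0220), and from each Tuba1 gene, all of which were slower in 8 of 8 libraries. Among the 10 β pairs 5 differed, 3 of them with Tubb2a. Tubg1 was slower than all 9 others, at 0.0220 against Tuba1a (7 of 8 libraries) and 0.0135 against the rest.

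The apparent half-life of the tubulins moved less with labelling time than that of the median gene. For the median of 7865 genes, the apparent half-life at 30 min was 2.12 times that at 120 min. The ratio was 1.01 for Tuba1a, 1.06 for Tuba1b, 1.12 for Tubb4b, 1.15 for Tuba1c, 1.22 for Tubb2b, 1.26 for Tuba4a, 1.27 for Tubg1 and 1.30 for Tubb5. Tubb6 (1.72) and Tubb2a (2.06) were nearer to the median gene. All 10 ratios were below it, and they ranked between the 7.54th (Tuba1a) and the 47.6th percentile (Tubb2a). Among the 2577 genes that averaged 1000 reads or more (a comparison added after seeing the data) the median was 1.88, and Tuba1a was at the 8.27th percentile. No test of this difference was made, since a group has 2 libraries.

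Tuba1b gave 399 min ± 26.2 after 30 min (SD, n = 2), 397 ± 13.1 after 60, 413 ± 31.8 after 90 and 378 ± 7.26 after 120 min, and its 8 libraries lay between 373 and 435. Tubb5 gave 284 ± 2.65, 245 ± 10.5, 239.6 ± 10.5 and 219 ± 3.63 in the same groups. The median gene went from 368 ± 11.7 through 247 ± 7.16 and 224 ± 14.8 to 198 ± 5.41. The rank of a tubulin among all genes thus depended on when it was read. Tuba1b stood at the 51.8th and 45.7th percentile of NTR in the 2 libraries at 30 min and at the 23.7th and 23.6th at 120 min. Tubb5 went from 64.6 and 63.5 to 44.6 and 44.3.

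**Figure D3:**
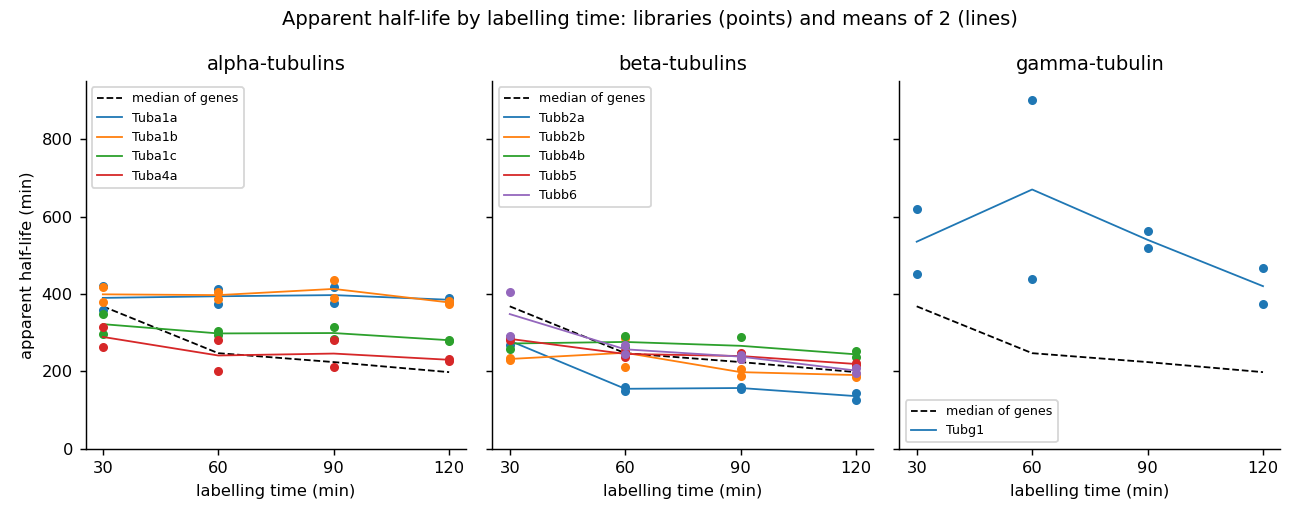
Apparent half-life in min (vertical axis) against labelling time from 30 to 120 min, with a point for each library, a line through the mean of the 2 libraries of a group, and the median gene dashed. The dashed line falls from 368 to 198 min, while Tuba1a and Tuba1b stay between 359.5 and 435 min in every library.

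Multiplying the NTR by the CPM splits each level into new and pre-existing RNA. Pre-existing Tubb5 RNA was 2617 CPM ± 63.3 (SD, n = 2) after 15 min, 2446 ± 1.71 after 30, 2246 ± 9.98 after 60, 2158 ± 53.7 after 90 and 1951 ± 20.5 after 120 min. New Tubb5 RNA went from 44.2 ± 11.4 to 903 ± 27.5 CPM between 15 and 120 min. The gain was larger than the loss, and the sum was 2662 ± 52.0 at 15 min and 2854 ± 48.0 at 120 min. Pre-existing Tuba1b RNA fell less in proportion, from 1310.1 ± 15.0 to 1103 ± 35.4 CPM, with 272 ± 14.5 CPM of new RNA at 120 min. Of Tubb2a, 42.4 ± 0.238 CPM was pre-existing at 120 min and 36.1 ± 3.98 new. Of Tubg1, 64.4 ± 2.53 CPM was pre-existing and 14.3 ± 1.87 new.

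**Figure D4:**
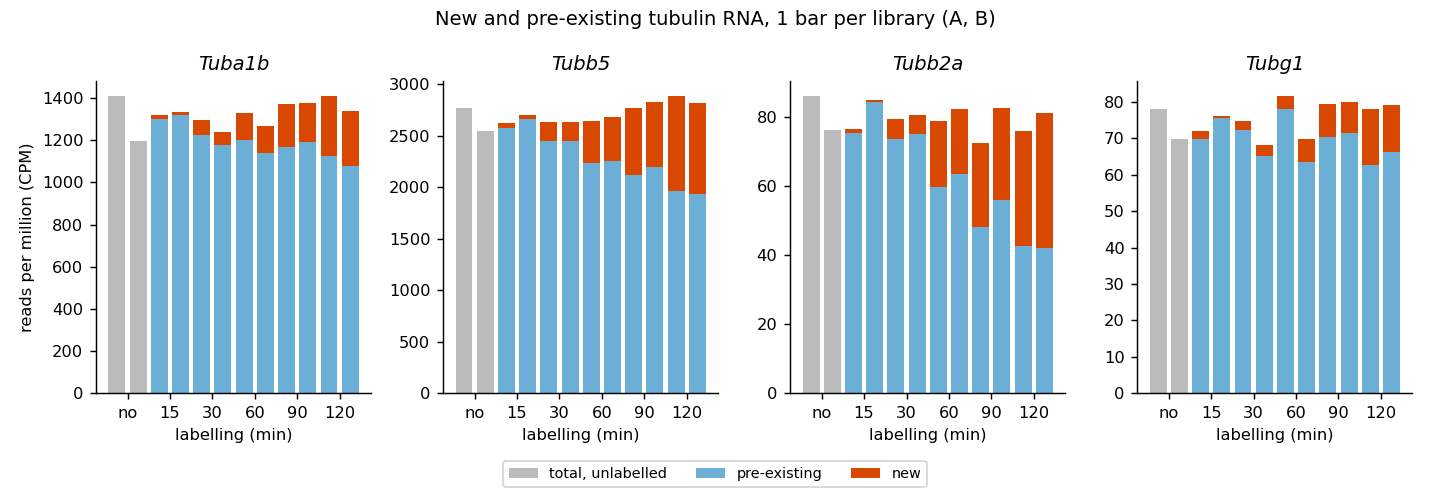
CPM of Tuba1b, Tubb5, Tubb2a and Tubg1 in each library, as grey bars without labelling and as pre-existing (blue) and new (orange) parts after 15 to 120 min of labelling, A before B. The new part of Tubb2a reaches 33.3 and 38.9 CPM at 120 min, near its pre-existing 42.6 and 42.2, and that of Tubg1 15.6 and 12.9.

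The levels of the tubulin mRNAs moved by at most 0.28 on the log2 scale in the fit of all 12 libraries, and 1 of these changes passed the test. All 10 members passed the filter on low counts. With edgeR's quasi-likelihood test over all 12 libraries and Benjamini-Hochberg adjustment over 11564 genes, 0 of 10 members differed from no4sU at 15, 30, 60, 90 or 120 min. Of all genes tested, 0% passed after 15 min, 0% after 30, 0.0173% after 60, 1.39% after 90 and 14.2% after 120 min. With no adjustment the members below 0.05 numbered 0, 0, 0, 1 and 3 in these comparisons, and DESeq2 called 0 in each, giving no adjusted p for Tuba4a at 90 min.

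At 120 against 15 min 1 of 10 members passed, where 19.3% of all genes did (7.93% higher and 11.3% lower). It was Tuba4a. Its level was 22.7 and 23.3 CPM in the 15 min libraries, 22.3 and 22.4 after 30 min, 25.0 and 23.4 after 60, 27.9 and 26.6 after 90, and 26.5 and 29.1 after 120 min, with 25.2 and 22.3 in no4sU A and B. All 4 libraries of 90 and 120 min were above all 8 others. The log2 fold change from 15 to 120 min was 0.28 ± 0.0953 (SE; edgeR adjusted p = 0.0465). DESeq2 gave an adjusted p of 0.169, and leaving out any labelled library ended the call in edgeR (adjusted p 0.0570 to 0.317). The size of the change stayed near that value with DESeq2 (0.2726) and was 0.1998 to 0.3439 over the fits that left out 1 library.

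Tubb4b had the next largest change from 15 to 120 min, from 525 and 533 CPM to 582 and 572 (log2 fold change 0.13 ± 0.0532, edgeR adjusted p = 0.103). Tubb5 went from 2625 and 2698 to 2888 and 2820.3 CPM (0.10 ± 0.0476, edgeR adjusted p = 0.144). Tuba1a went from 652 and 662 to 711 and 693 CPM (0.10 ± 0.0530, edgeR adjusted p = 0.215). In these 3 genes both 120 min libraries were above both 15 min libraries. A fit of the 15 and 120 min libraries alone called 4 members higher, these 3 and Tuba4a, where it called 33.6% of genes. Fits over all groups that left out no4sU A or no4sU B called the same 4, among 31.6% and 31.7% of genes.

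The median log2 fold change of the 10 members from 15 to 120 min was 0.08, against 0.01 for all genes tested, and 9 were above 0. Tubb2a, the member with the highest share of new RNA, was the one below 0 (-0.04 ± 0.0780, edgeR adjusted p = 0.763), with 76.5 and 85.0 CPM at 15 min and 75.9 and 81.1 at 120 min. Scaling by library size alone shifted the median of all genes to -0.05 and that of the members to 0.02, and left 6 of 10 above 0, since Tuba1b, Tuba1c and Tubb6 changed sign.

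Against no4sU at 120 min, the members' median log2 fold change was 0.10 (0.01 for all genes), with 9 of 10 above 0. Without no4sU A 7 members were called higher, among 30.2% of genes in either direction. These were Tuba1a, Tuba1b, Tuba1c, Tuba4a, Tubb4b, Tubb5 and Tubb6, with log2 fold changes of 0.1447 (Tubb6) to 0.3207 (Tuba4a). At 90 min 6 members were then called higher, the same ones without Tuba4a, among 12.3% of genes. Without no4sU B no member was called at 90 or 120 min, and Tuba1b, Tubb4b and Tubb6 were called lower at 30 min, among 11.7% of genes. The change of the tubulins against unlabelled cells thus depended on which of the 2 no4sU libraries served as reference.

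**Figure D5:**
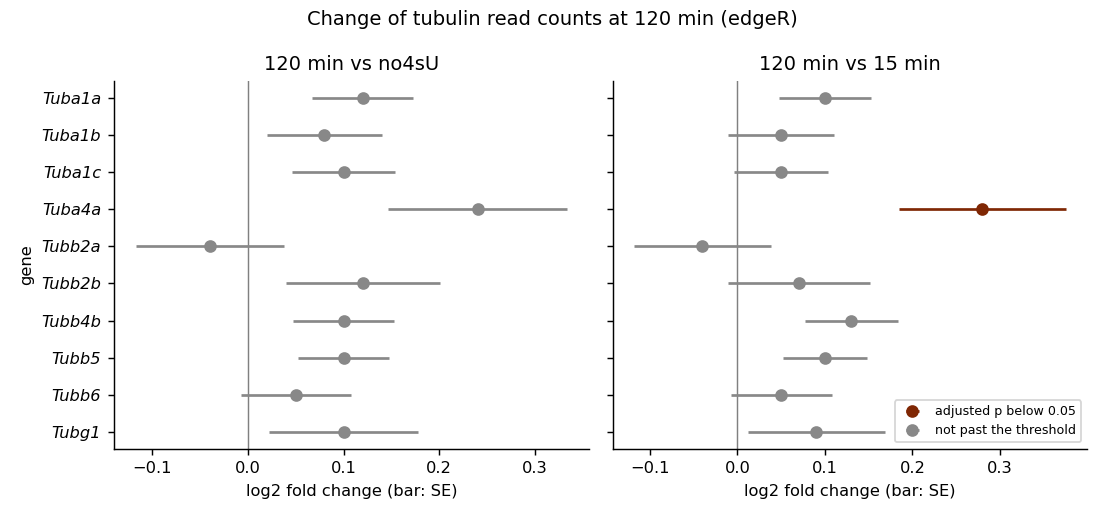
Log2 fold change of each tubulin gene (horizontal axis, points with SE bars, edgeR) at 120 min against no4sU and against 15 min, dark where the adjusted p was below 0.05. Only Tuba4a against 15 min, at 0.28, is dark, and in both panels 9 of 10 points lie to the right of 0 and Tubb2a lies at -0.04.

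Genes that act on tubulin were read from lists chosen by role. Of 17 genes of autoregulation and deadenylation, 7 fell from 15 to 120 min and 0 rose (edgeR, adjusted over all genes), where 11.3% of all genes fell and 7.93% rose, with a list median of -0.14 against 0.01 for all genes. Cnot6l, a catalytic subunit of CCR4-NOT, fell by 0.79 ± 0.0992 on the log2 scale (edgeR adjusted p = 4.6e-05), from 46.6 and 47.5 to 25.7 and 28.4 CPM. Cnot2 (-0.40 ± 0.0674) and Cnot9 (-0.32 ± 0.0676), subunits of the same complex, fell as well, and 77.3%, 52.8% and 53.6% of the RNA of these 3 genes was new at 120 min. Ttc5, which reads the nascent tubulin chain, had a log2 fold change of -0.01 ± 0.111 (edgeR adjusted p = 0.980), with 15.2 and 15.0 CPM at 15 min and 15.8 and 14.4 at 120 min. Against no4sU at 120 min 5 of the 17 fell, where 8.78% of all genes did, and 1 rose, where 5.43% did. The latter was Btg2, a binding partner of the deadenylase (0.59 ± 0.169, edgeR adjusted p = 0.0253). Its level was 9.83 and 7.52 CPM in no4sU A and B, and 14.5 and 11.5 at 120 min.

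Of 21 genes that fold tubulin, 5 rose from 15 to 120 min and 0 fell, where 7.93% of all genes rose and 11.3% fell, with a list median of 0.13. They were Pfdn5 of prefoldin (0.32 ± 0.0814), Tbca, a cofactor that takes up β-tubulin (0.27 ± 0.0779), and Cct3 (0.18 ± 0.0498), Cct8 and Cct2, subunits of the cytosolic chaperonin that folds tubulin and actin. Against no4sU at 120 min 0 of 21 passed, and the list median was 0.10. Like Tuba1a and Tuba1b these genes had less new RNA at 120 min than the median gene, 11.4% for Pfdn5, 11.1% for Tbca and 17.9% for Cct3.

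The counts of the next 4 lists from 15 to 120 min stand beside the same shares of all genes, 7.93% higher and 11.3% lower. Those at 120 min against no4sU stand beside 5.43% higher and 8.78% lower. Among 10 genes of the γ-tubulin complex 0 rose and 1 fell from 15 to 120 min, Tubgcp5, a subunit of the ring (-0.46 ± 0.0942, edgeR adjusted p = 0.00245). Tubgcp4 (0.16 ± 0.0699, edgeR adjusted p = 0.116) and Tubgcp3 (-0.15 ± 0.0662, edgeR adjusted p = 0.121) did not pass. Of 22 tested genes whose products bind microtubules, 1 rose and 3 fell from 15 to 120 min, while against no4sU at 120 min 3 were higher and 2 lower. Kif2a and Kif2c, kinesins that take microtubules apart, fell by 0.38 ± 0.0703 and 0.32 ± 0.0701 on the log2 scale, and Stmn1, which binds free dimers, rose by 0.26 ± 0.0598. Of 16 tested enzymes that modify tubulin, 3 rose and 3 fell, among them the deacetylase Sirt2 (0.23 ± 0.0677), Vash2, which removes the last tyrosine of α-tubulin (-0.27 ± 0.0758), and the polyglutamylase Ttll4 (-0.25 ± 0.0786). Of the 4 tested tubulins outside the set, Tube1 fell (-0.50 ± 0.134, edgeR adjusted p = 0.0126), and Tubb3 (-0.29 ± 0.180, edgeR adjusted p = 0.280) and Tubg2 (0.38 ± 0.383, edgeR adjusted p = 0.545) did not pass. Against no4sU at 120 min, the γ-tubulin complex had 0 higher and 1 lower, the modifying enzymes 1 and 1, and the tubulins outside the set 0 and 1.

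Among 2694 other genes that averaged 1000 reads or more, those whose NTR over the 10 labelled libraries was most like that of Tuba1b were Naca, Fth1 and Cct4, with a root mean square difference of 0.616, 0.664 and 0.723 percentage points. Naca encodes a subunit of the nascent polypeptide-associated complex and Fth1 the ferritin heavy chain. Tuba1a was nearer still, at 0.378, and the share of identical sequence in these 2 genes was given above. Its part in their likeness was not tested. The genes most like Tubb5 were Ppp3r1 (0.598), the regulatory subunit of calcineurin, Scd2 (0.730), a fatty acid desaturase, and Rraga (0.736), a GTPase of amino acid sensing. The member most like Tubb5 was Tubb6, at 1.27 percentage points.

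Of other features of the transcripts, the 3′ UTRs of the members are mostly short, 101 bases in Tuba1c to 1394 in Tuba4a, with only Tuba4a and Tubb5 (1061) above the median of 925 for 15062 coding genes of the table. The letters ATTTA, the core of AU-rich decay elements, were searched on the transcript strand and occur in the 3′ UTR of 3 of the 10 members (2 matches in Tubb5, 1 each in Tubb2b and Tubg1), against 64.0% of those genes. The share of T, the letter at which conversions are read, varied among the members. T made up 19.0% of the transcript in Tubg1, 19.5% in Tubb6 and 21.2% in Tubb2a, and 22.2% to 26.3% in the other 7, beside a median of 24.2%. Its part in the NTRs was not tested.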

How the data were processed

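RNA of 12 NIH-3T3 libraries was converted with iodoacetamide and sequenced, per the labels' protocols. The submitters' processing notes name cutadapt, Bowtie2 2.3.0 and STAR 2.7.10b without their roles. The counting tool, the genome build and the handling of strand and of reads shared between copies are left unstated by the sources at hand. The authors deposited estimated counts per gene and library, unscaled, of which 20.4% were not whole (tolerance 1e-06), and they were rounded before testing. Per the file headers, the NTR is a fraction given as a posterior maximum (used here), a mean and quantiles at 0.05 and 0.95. The deposited alpha and beta parameters are each a score of the NTR distribution and were not used here.

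For the count tests, edgeR 4.0.16 (R 4.3.3) made 1 fit of all 12 libraries without covariates (filterByExpr, TMM factors 0.970 to 1.02, quasi-likelihood test, adjusted p below 0.05, common biological coefficient of variation 4.44%). DESeq2 1.42.0, other scalings and filters, a block by replicate letter and left-out libraries were alternatives. On simulated counts of 11485 genes for 120 against 15 min, 87.0% of changes of 0.5 on the log2 scale and 100% of changes of 1.0 were recovered. CPM used TMM library sizes. Percentiles and medians of NTR are over the 9065 genes that averaged 100 reads or more, and half-lives were computed for NTRs between 0.01 and 0.99. Exact permutation tests went through all sign changes with numpy 2.4.6 under Python 3.11.15. Groups of 2 libraries cannot reach an exact permutation p below 0.333, so NTRs of single times were described and not tested. All 10 members are named, with the 3 non-members likest in NTR to the most abundant α- and β-tubulin and, from each list, the 3 genes with the smallest p at 120 against 15 min. Btg2, Cct8, Cct2 and Ttc5 were added after their values were seen. Members and lists were chosen with earlier results of these data known. Gene models and sequences are from GENCODE M21 (GRCm38), whose transcript length equals the deposited length for all 10 members. No sequence is printed for Tubb6.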

Additional observations from a re-analysis of the deposited data

Results flagged for a closer look

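Tuba4a differed between the 15 and the 120 min libraries by the test of that difference, with a log2 fold change of 0.28 ± 0.0953 (SE, edgeR adjusted p = 0.0465). Against no4sU its log2 fold change was -0.04 ± 0.0974 at 15 min and 0.24 ± 0.0937 at 120 min, and neither passed the threshold (edgeR adjusted p = 0.974 and 0.0924). Both comparisons share the no4sU libraries.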

How the results depend on the processing

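The number of members called at 120 against 15 min was 1. It was 0 with DESeq2, 0 with library size alone, 0 with no filter on low counts, 4 with only the groups compared, and 0 to 4 when each library was left out in turn. Leaving out each library gave 0 to 3 calls at 30 min, 0 to 6 at 90 min and 0 to 7 at 120 min against no4sU, where the 3 came without no4sU B and the 6 and 7 without no4sU A. The cause was not tested. With library size alone the log2 fold change of Tubb6 was -0.0159 at 120 min against no4sU, and at 120 against 15 min it was -0.0069 for Tuba1b, -0.0028 for Tuba1c and -0.0071 for Tubb6. Leaving out each library gave -0.0377 to 0.1988 for Tuba1b, -0.1317 to 0.0425 for Tubb2a and -0.0421 to 0.1447 for Tubb6 at 120 min against no4sU, and -0.1126 to 0.0366 for Tubb2a at 120 against 15 min. With the replicate letter as a block, Tuba4a had 0.2786 at 120 against 15 min (edgeR adjusted p = 0.0470), 1 member was called there and 0 in the other comparisons. Deviations of libraries with the same letter correlated at -0.129 to 0.150 over 15 pairs of groups, so the letters were not taken as pairing. Differing pairs of apparent rate numbered 34, and 27 to 35 under the alternatives, with 0 changes of direction among called pairs. With the 15 min libraries the half-life of Tubb2b was 379 min, that of Tubb2a 301 and that of Tuba1b 479.9, against 217, 182 and 396. Tubb2b then lay above Tuba1c (339). For Tubb2a and Tubb2b the 15 min value rested on 1 library each. Tuba4a had no usable value at 15 min, so its 251 min cannot be ranked against these. The members' log2 fold changes, at most 0.28 in the fit of all libraries and 0.3439 with 1 left out (Tuba4a), lie below the smallest size simulated (0.5).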
